A study of Homo sapiens with 4 samples.

Results

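The genes described here are 10 genes of the NF-kB pathway, taken by their symbols in the deposited tables out of 50868 genes: the 5 subunits NFKB1, NFKB2, REL, RELA and RELB, the inhibitors NFKBIA, NFKBIE and TNFAIP3, and the targets BIRC3 and TRAF1. All 10 were found once. RNA-seq had been carried out on Jurkat T cells, a human leukaemic T cell line, kept for 24 h in vehicle (DMSO) or in JQ1 at 0.5 μM, each in the absence or presence of PHA at 150 ng/ml. JQ1 occupies the bromodomains of BET proteins, which bind acetylated histones, and PHA is a lectin that stimulates T cells through surface glycoproteins that include the T cell receptor. Each condition is 1 library of 1 transformed cell line, so differences between conditions cannot be set against a replicate spread and were not tested. The intervals below are 95% intervals for counting error only.

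NF-kB transcription factors are dimers of 5 related proteins. RELA, REL and RELB carry a transactivation domain, whereas NFKB1 and NFKB2 are made as long precursors (p105 and p100) that are processed to the DNA-binding subunits p50 and p52. In resting cells IkB proteins hold the dimers in the cytoplasm, and signals from the T cell receptor or from receptors of the TNF family free them through the IKK kinase. Several genes that NF-kB switches on encode proteins that shut the pathway off again. Among these are IkB alpha (NFKBIA), IkB epsilon (NFKBIE) and the ubiquitin-editing enzyme A20 (TNFAIP3). Other such genes encode anti-apoptotic proteins such as cIAP2 (BIRC3) and TRAF1.

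The DNA element that these dimers bind, the kB site, was looked for as letters in the RefSeq promoter windows (GRCh38.p14), which run from 250 bases before to 50 bases after each annotated start. The kB consensus, a 10-base motif of a run of G, a purine, any base, an A or T, pyrimidines and a closing pair of C, was searched on both strands. Of 35116 windows of that length for all genes, 2075 (5.91%) held it. A looser pattern (GGG, any 5 bases, CC) was in 58.7% of all windows and in all 14 windows of the 10 genes. The table matched 8 of the 10 genes with 14 windows (NFKBIE and RELB have no entry in it), and 7 of the 14 windows, from 6 genes, held the consensus. The genes were chosen as NF-kB subunits, inhibitors and targets, so this share follows in part from the choice. Some windows also came from the same gene. Overlapping matches on opposite strands were counted separately. The stretches that hold the matches are shown 5′ to 3′ on the gene's own strand, with the matched bases in capitals, because the kB site is the element by which NF-kB acts on its own genes.
NFKB1 (chr4:102501290-102501339, plus strand): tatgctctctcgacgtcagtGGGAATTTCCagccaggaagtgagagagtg
NFKB2, upstream site at start 2 (chr10:102394462-102394491, plus strand): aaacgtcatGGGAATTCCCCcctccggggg
NFKB2, downstream site at start 2 (chr10:102394490-102394519, plus strand): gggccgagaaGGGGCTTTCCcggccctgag
NFKB2, start 3 (chr10:102395509-102395704, plus strand): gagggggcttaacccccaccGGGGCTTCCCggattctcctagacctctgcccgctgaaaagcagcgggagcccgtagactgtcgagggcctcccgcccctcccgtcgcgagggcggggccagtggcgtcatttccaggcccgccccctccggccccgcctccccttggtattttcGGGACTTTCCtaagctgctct
REL (chr2:60881518-60881547, plus strand): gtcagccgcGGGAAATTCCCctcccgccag
NFKBIA (chr14:35404801-35404850, minus strand): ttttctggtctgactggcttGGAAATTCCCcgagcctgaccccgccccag
TNFAIP3 (chr6:137867172-137867233, plus strand): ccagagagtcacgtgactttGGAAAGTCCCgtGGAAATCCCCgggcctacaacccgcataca
BIRC3 (chr11:102317265-102317378, plus strand): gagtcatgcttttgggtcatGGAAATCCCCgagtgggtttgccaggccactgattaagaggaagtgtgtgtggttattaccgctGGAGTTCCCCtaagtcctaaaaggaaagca

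Against GENCODE release 44, the stretches of NFKBIA and BIRC3 lay wholly outside the annotated gene. The NFKB1 stretch had 40 bases before the gene and 10 bases in an exon, and that of TNFAIP3 had 42 bases before it and 20 bases in an exon. Those of REL and of NFKB2 start 2 were exonic throughout, in transcripts that begin further upstream, and 184 of the 196 bases at NFKB2 start 3 were intronic. In TNFAIP3 the matches were 67 and 55 bases before the start, counted at their first base, and in BIRC3 they were 199 and 135 bases before it. NFKB2 had 4 matches at start 2, 3 of them overlapping on a palindromic stretch, and 2 at start 3. The consensus was not among the letters of the 3 TRAF1 windows, the 2 RELA windows, the first NFKB2 window or the second NFKB1 window. A match is a description of letters, and no binding was measured in these libraries.

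**Figure D1:**
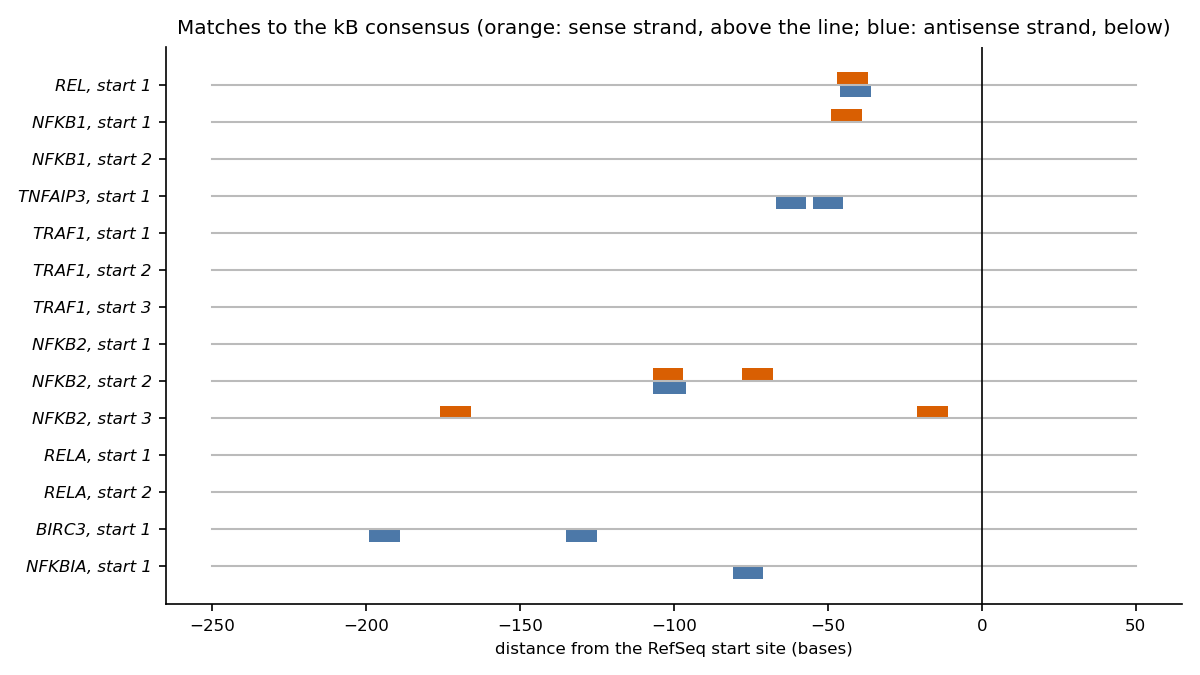
Positions of matches to the kB consensus in the 14 RefSeq promoter windows of 8 of the 10 genes, in bases from the annotated start (x axis, 0 is the start), 1 line per window. Bars above a line are matches on the gene's strand and bars below it on the other strand, and 7 of the 14 windows hold at least 1.

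Total counts per library lay between 18620954 and 19685401, so that 3 counts equal 0.152 to 0.161 CPM, which is the share of a library's counts on a common scale. The BET-responsive gene HEXIM1, used as a check on the JQ1 labels, was at 36.2 and 34.6 FPKM (fragments scaled by gene length and library size) in the libraries labelled DMSO and DMSO + PHA, and at 109 and 104 FPKM in those labelled JQ1 and JQ1 + PHA. EGR1, an immediate early gene used as a check on the PHA labels, was at 0.491 and 0.405 FPKM without PHA, and at 39.9 (DMSO + PHA) and 6.85 FPKM (JQ1 + PHA) with it. All 12 T lymphoblast markers reached 1 FPKM in every library, with a summed level of 687, 537, 978 and 618 FPKM (DMSO, JQ1, DMSO + PHA, JQ1 + PHA). Of 5 B cell markers 1 (CD79A) did so and the other 4 stayed under 1 FPKM, with the list summing to 7.57, 1.06, 6.39 and 1.01 FPKM in the same order, and none of the 6 myeloid, 3 erythroid, 3 epithelial or 4 fibroblast markers reached 1 FPKM. Both sums were lower with JQ1, as were several of the genes below, and their part in those results was not tested. In bulk RNA, fewer cells of a kind and less RNA per cell cannot be told apart.

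The genes with the widest range over the 4 libraries, NFKBIE, RELB and TRAF1, were among the 4 genes with the lowest mean FPKM. With JQ1, REL and NFKBIA had a larger share of the counts and NFKB2, NFKBIE, TNFAIP3 and BIRC3 a smaller share, with and without PHA. TRAF1 was higher with JQ1 without PHA, while with PHA its interval included 0. RELA and NFKB1, the genes of the classical p65 and p50 dimer, moved least, with a range of 0.27 and 0.38 on the log2(FPKM + 0.1) scale. No gene of the 10 that reached a mean FPKM of 1 was past 2-fold on that scale in any comparison.

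NFKB1 (chr4:102501329-102617302, plus strand, GRCh38), the gene of p105 and p50, had 7.85 FPKM in DMSO, 8.12 in JQ1, 10.2 in DMSO + PHA and 8.95 in JQ1 + PHA, from 1525, 1650, 2077 and 1721 counts. The DMSO + PHA library was the highest. The log2 ratio, here and below that of a gene's share of its library's counts, was for JQ1 against DMSO without PHA 0.05 (−0.05 to 0.15), and with PHA it was −0.19 (−0.28 to −0.10). PHA went with a log2 ratio of 0.38 (0.28 to 0.48) in DMSO and 0.14 (0.04 to 0.24) in JQ1. The kB match shown above lies at its first start.

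NFKB2 (chr10:102394110-102402529, plus strand), which encodes p100 and p52 of the noncanonical arm, had 3.85 FPKM in DMSO, 2.86 in JQ1, 4.78 in DMSO + PHA and 2.71 in JQ1 + PHA (493, 384, 641 and 344 counts). Both JQ1 libraries were below both DMSO libraries. Its log2 ratio for JQ1 was −0.43 (−0.62 to −0.23) without PHA and −0.82 (−1.01 to −0.63) with PHA, and the difference of these ratios was −0.39 (−0.66 to −0.12). The PHA ratio was 0.31 (0.14 to 0.49) in DMSO, whereas in JQ1 it was −0.08 (−0.29 to 0.13).

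REL (chr2:60881521-60931610, plus strand), the gene of c-Rel, a subunit prominent in lymphocytes, ran the other way. It had 2.23 FPKM in DMSO, 3.61 in JQ1, 2.89 in DMSO + PHA and 3.87 in JQ1 + PHA (531, 900, 721 and 913 counts), and both JQ1 libraries were above both DMSO libraries. The JQ1 log2 ratio was 0.70 (0.54 to 0.85) without PHA and 0.42 (0.28 to 0.56) with PHA. For PHA the ratio was 0.38 (0.21 to 0.54) in DMSO and 0.10 (−0.03 to 0.23) in JQ1. A lncRNA, RP11-373L24.1, overlaps REL over 5702 bases on the same strand and had 842, 1297, 1063 and 1295 counts (DMSO, JQ1, DMSO + PHA, JQ1 + PHA). Its JQ1 log2 ratios were 0.56 (0.43 to 0.69) and 0.37 (0.25 to 0.48), and how reads in the shared bases were assigned is not given in the sources used here, so the REL values are uncertain to that extent.

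RELA (chr11:65653596-65663094, minus strand), which encodes p65, had 2.62 FPKM in DMSO, 2.64 in JQ1, 2.88 in DMSO + PHA and 3.18 in JQ1 + PHA (883, 932, 1014 and 1059 counts). The 4 libraries lay close together. Its JQ1 log2 ratio was 0.01 (−0.12 to 0.15) without PHA and 0.14 (0.02 to 0.27) with PHA, and the PHA ratio was 0.13 (0.00 to 0.27) in DMSO and 0.26 (0.14 to 0.39) in JQ1.

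RELB (chr19:45001430-45038198, plus strand), the usual partner of p52, was the lowest of the 10 genes in every library. It had 0.215 FPKM in DMSO, 0.118 in JQ1, 0.346 in DMSO + PHA and 0.0622 in JQ1 + PHA, resting on 28, 16, 47 and 8 counts. Both JQ1 libraries were below both DMSO libraries. With PHA the JQ1 library was 5.56-fold lower, a log2 ratio of −2.47 (−3.77 to −1.38), whereas without PHA the ratio was −0.87 (−1.86 to 0.06), and the difference of the ratios was −1.60 (−3.00 to −0.20). At this depth no PHA difference was detectable for RELB in DMSO, 0.68 (−0.02 to 1.41), or in JQ1, −0.92 (−2.35 to 0.39).

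NFKBIA (chr14:35401511-35404749, minus strand), the gene of IkB alpha and the best known feedback inhibitor, was low by deposited FPKM. That FPKM rests on a length of 6982 bases, against 1559 bases for the Ensembl canonical transcript. Per kb of that transcript, NFKBIA had 3.55 CPM in DMSO, 4.92 in JQ1, 3.06 in DMSO + PHA and 4.17 in JQ1 + PHA. It had 0.792 FPKM in DMSO, 1.10 in JQ1, 0.684 in DMSO + PHA and 0.931 in JQ1 + PHA (104, 151, 94 and 121 counts). By these levels both JQ1 libraries were above both DMSO libraries, and JQ1 + PHA against DMSO was given no interval. The JQ1 log2 ratio was 0.47 (0.10 to 0.85) without PHA and 0.44 (0.04 to 0.85) with PHA. Its PHA ratios were −0.21 (−0.63 to 0.21) in DMSO and −0.24 (−0.60 to 0.11) in JQ1. It was the one gene of the 10 with a negative PHA ratio both in DMSO and in JQ1, and both intervals included 0.

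NFKBIE (chr6:44258166-44265788, minus strand), the gene of IkB epsilon, had the widest range of the 10, 1.51 on the log2(FPKM + 0.1) scale. Without the added 0.1, RELB ranged wider in proportion, from 0.43 to 2.39 CPM, against 1.83 to 6.15 CPM for NFKBIE. NFKBIE was at 0.810 FPKM in DMSO, 0.353 in JQ1, 1.19 in DMSO + PHA and 0.684 in JQ1 + PHA (79, 36, 121 and 66 counts). JQ1 went with a 2.30-fold lower share without PHA, a log2 ratio of −1.20 (−1.81 to −0.61), and with a 1.73-fold lower share with PHA, −0.79 (−1.25 to −0.35). The sign of the JQ1 difference was thus opposite in the IkB genes NFKBIA and NFKBIE in both backgrounds, each with an interval that excluded 0. NFKBIE was higher with PHA in DMSO, 0.55 (0.13 to 0.98), and in JQ1, where it was 1.94-fold higher, 0.95 (0.35 to 1.58).

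TNFAIP3 (chr6:137867188-137883312, plus strand), the gene of A20, had 2.65 FPKM in DMSO, 2.26 in JQ1, 3.45 in DMSO + PHA and 2.52 in JQ1 + PHA (626, 558, 853 and 589 counts). The DMSO + PHA library stood above the other 3. Its JQ1 log2 ratio was −0.23 (−0.40 to −0.06) without PHA and −0.45 (−0.61 to −0.30) with PHA, and PHA gave 0.38 (0.23 to 0.53) in DMSO and 0.16 (−0.01 to 0.33) in JQ1. A lncRNA on the opposite strand, RP11-356I2.4, shares 1046 bases with it and had 124, 89, 109 and 66 counts. The use of strand in counting is not given in the sources used here, so reads of the pair cannot be told apart over these bases.

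BIRC3 (chr11:102317450-102339403, plus strand), the gene of the apoptosis inhibitor cIAP2, was the one gene of the 10 with PHA ratios of opposite sign in DMSO and in JQ1 and intervals that both excluded 0. It had 3.57 FPKM in DMSO, 1.91 in JQ1, 2.82 in DMSO + PHA and 2.43 in JQ1 + PHA (963, 539, 795 and 648 counts). JQ1 went with a 1.87-fold lower share without PHA, a log2 ratio of −0.90 (−1.06 to −0.75), and with −0.21 (−0.37 to −0.06) with PHA. The difference of these ratios, 0.69 (0.47 to 0.90), was the only one of the 10 with an interval above 0. PHA gave −0.34 (−0.48 to −0.20) in DMSO and 0.35 (0.18 to 0.51) in JQ1.

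TRAF1 (chr9:120902393-120929173, minus strand), an adaptor of TNF-family receptors that binds cIAP2, had 0.823 FPKM in DMSO, 1.39 in JQ1, 1.68 in DMSO + PHA and 1.63 in JQ1 + PHA (102, 180, 218 and 200 counts). The DMSO library was the lowest and the other 3 lay above it. JQ1 went with a 1.69-fold higher share without PHA, a log2 ratio of 0.75 (0.40 to 1.12), and with −0.04 (−0.33 to 0.24) with PHA, a difference of −0.80 (−1.25 to −0.35). PHA went with a 2.04-fold higher share in DMSO, 1.03 (0.68 to 1.38), and 0.23 (−0.07 to 0.53) in JQ1. On the log2(FPKM + 0.1) scale the PHA ratio in DMSO was 0.95, below 2-fold.

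Counted by comparison, 3 of the 10 genes had an interval above 0 and 4 below 0 for JQ1 without PHA, where 32.8% and 37.8% of 15110 genes with a mean count of at least 10 did. With PHA the counts were 3 above and 6 below, against 30.3% and 38.3% of all genes. For PHA in DMSO, 7 of the 10 genes were above 0 and 1 (BIRC3) below, against 23.4% and 21.5% of all genes. The 7 were NFKB1, NFKB2, REL, RELA, NFKBIE, TNFAIP3 and TRAF1, and the lower bound for RELA was 0.00 after rounding. For PHA in JQ1, 4 of the 10 (NFKB1, RELA, NFKBIE and BIRC3) were above 0 and 0 below, against 14.1% and 14.0%. The difference of the JQ1 ratios with and without PHA was above 0 for 1 gene and below 0 for 5 (NFKB1, NFKB2, REL, RELB and TRAF1), against 17.8% and 19.8% of 14986 genes. Whether an interval excludes 0 also depends on how many counts a gene has. The shares over all genes were not matched to the 10 genes by count. The comparisons of JQ1 with DMSO and of DMSO + PHA with DMSO share the DMSO library, so a high or low DMSO value moves both, and each of the other 3 libraries likewise enters both a JQ1 and a PHA comparison.

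By the 2-fold rule, on FPKM after adding 0.1 and for genes with a mean of at least 1 FPKM, 7 of the 10 genes could be called (NFKBIA, NFKBIE and RELB were below that mean) and 0 of the 7 was past 2-fold in any of the 4 comparisons. Of 11503 genes, 13.9% were past 2-fold for JQ1 without PHA, 11.7% for JQ1 with PHA, 3.29% for PHA in DMSO and 2.07% for PHA in JQ1. The median size of the log2 ratio of the 7 genes, 0.41, was the same as that of all genes for JQ1 without PHA, and it was 0.21 against 0.36 with PHA. For PHA in DMSO the 7 genes had a median size of 0.36 against 0.16 for all genes, and in JQ1 0.15 against 0.10. Signed medians were 0.01 and −0.19 for JQ1 without and with PHA, and 0.36 and 0.15 for PHA in DMSO and in JQ1, beside medians of all genes between −0.02 and 0.00. These medians leave out NFKBIE and RELB, the genes of widest range, which the filter removed.

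Levels of different genes depend on the length by which counts are divided. The length behind the deposited FPKM was longer than the annotated locus for RELA (17907 against 9499 bases) and NFKBIA (6982 against 3239 bases), and it was longer than the union of annotated exons for 8 of the 10 genes. By deposited FPKM NFKB1 led the 10 genes in every library and made up 46.8% to 48.4% of the summed level of the 5 subunits, with RELA at 13.6% to 16.9%. Per kb of the Ensembl canonical transcript, NFKB1 (39.6% to 42.2%) and RELA (33.2% to 40.3%) were above the other subunits in every library, and their levels could not be told apart in DMSO or in JQ1 + PHA. Per kb of all annotated exons, RELA led in every library, with 37.9% to 46.1%. On each of these 3 scales RELB was the lowest of the 10 genes in every library.

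The shares of NFKB2 and RELB among the subunits were lower with JQ1 and that of REL higher on all 3 scales, with and without PHA. Per kb of canonical transcript, the share of NFKB2 was 17.2% in DMSO, 12.8% in JQ1, 17.5% in DMSO + PHA and 10.9% in JQ1 + PHA. The share of REL was 5.03%, 8.16%, 5.35% and 7.87% in the same order. RELB made up 1.30%, 0.714%, 1.72% and 0.339%. The summed level of the 5 subunits was 50.5, 50.4, 61.6 and 56.1 CPM per kb, highest with DMSO + PHA.

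In order of FPKM, the DMSO library had NFKB1, NFKB2, BIRC3, TNFAIP3, RELA, REL, TRAF1, NFKBIE, NFKBIA and RELB. Only neighbours in the order of a library were compared, here and below. In DMSO, NFKB2 and BIRC3, TNFAIP3 and RELA, TRAF1 and NFKBIE, and NFKBIE and NFKBIA did not differ beyond counting error. With JQ1 the order was NFKB1, REL, NFKB2, RELA, TNFAIP3, BIRC3, TRAF1, NFKBIA, NFKBIE and RELB, and of the neighbours only NFKB2 and RELA were not resolved. In DMSO + PHA, NFKB2, TNFAIP3, REL, RELA, BIRC3, TRAF1, NFKBIE, NFKBIA and RELB followed NFKB1, and the pairs REL and RELA, and RELA and BIRC3, were not resolved. In JQ1 + PHA, REL, RELA, NFKB2, TNFAIP3, BIRC3, TRAF1, NFKBIA, NFKBIE and RELB followed it, and the pairs NFKB2 and TNFAIP3, and TNFAIP3 and BIRC3, were not resolved. By deposited FPKM, REL followed NFKB1 directly in both JQ1 libraries and stood lower in both DMSO libraries. Per kb of canonical transcript, REL was at rank 6 in both JQ1 libraries and in DMSO + PHA, and at rank 7 in DMSO. Per kb of annotated exons, REL was at rank 6 in both JQ1 libraries and in DMSO, and at rank 8 in DMSO + PHA.

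For the 3 genes of widest range, the genes of most similar pattern were taken as those with the smallest Euclidean distance of centred log2(FPKM + 0.1) over the 4 libraries, which is a likeness over 4 points. For NFKBIE these were IGSF8 (distance 0.134), ZNF343 (0.189) and MORF4L2-AS1 (0.201). The RELB pattern was closest to RN7SKP240 (0.128), ICAM2 (0.157) and HVCN1 (0.188). Adding 0.1 narrows the RELB pattern, which rests on 0.0622 to 0.346 FPKM. TRAF1 was closest to B4GALT4 (0.0494), MAX (0.0650) and DDAH2 (0.0813).

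The 10 genes were set beside 58 other genes of the pathway, of which 39 had a mean of at least 1 FPKM. Past 2-fold, 3 of the 39 were higher and 7 lower with JQ1 without PHA, where 5.22% and 8.65% of 11503 genes were. With PHA 0 were higher and 5 lower, against 3.69% and 8.0% of all genes. For PHA in DMSO 4 were higher and 0 lower, against 2.1% and 1.19%, and in JQ1 3 were higher and 1 lower, against 1.04% and 1.03%. With a pseudocount of 1 in place of 0.1, 3 were higher and 3 lower for JQ1 without PHA, and 0 higher and 1 lower for PHA in JQ1. Their median log2 ratios, 0.06, 0.07, 0.11 and 0.04 in that order, stood beside −0.02 to 0.00 for all genes. CD27 exceeded 1 FPKM only in DMSO + PHA (3.89), and TNFRSF4 only in DMSO (2.08) and DMSO + PHA (2.30). Both passed the filter through those libraries. Their calls as lower with JQ1, and that of CD27 as higher with PHA in DMSO, thus follow in part from the filter.

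Of 8 receptors 4 passed the filter. TNFRSF4 (OX40) had 2.08 FPKM in DMSO, 0.149 in JQ1, 2.30 in DMSO + PHA and 0.196 in JQ1 + PHA, and it was 14.0-fold and 11.7-fold lower with JQ1 without and with PHA. CD27 had 0.758, 0.264, 3.89 and 0.209 FPKM in the same order, on 22, 8, 118 and 6 counts. The costimulatory receptor CD28 had 6.70, 5.36, 19.1 and 7.11 FPKM, and the DMSO + PHA library stood above the other 3. Of the 12 genes between the T cell receptor and IKK, 2 were past 2-fold on the higher side and 0 on the lower side with JQ1 without PHA. Of all genes 5.22% and 8.65% were. PRKCQ, the protein kinase C theta of T cells, had 11.6, 27.8, 16.0 and 26.8 FPKM, and TAB2, an adaptor of the kinase TAK1, had 3.24, 11.0, 3.18 and 4.01 FPKM. TAB2 was also past 2-fold on the lower side for PHA in JQ1, where 1.03% of all genes were.

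In the noncanonical arm TRAF3, which holds the kinase NIK low, had 1.63, 1.15, 2.18 and 2.79 FPKM (DMSO, JQ1, DMSO + PHA, JQ1 + PHA), past 2-fold for PHA in JQ1. NFKBIB, the gene of IkB beta, had 3.92, 1.80, 3.58 and 2.30 FPKM, and was 2.18-fold lower with JQ1 without PHA, the same sign as NFKBIE and opposite to NFKBIA. None of the 11 ubiquitin regulators was past 2-fold in any comparison, where 2.07% to 13.9% of all genes were.

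Of 19 other targets 7 passed the filter, and of these 4 were past 2-fold on the lower side and 1 on the higher side with JQ1 without PHA, beside the 8.65% and 5.22% of all genes given above. CD40LG, the ligand through which T cells signal to CD40, had 4.40, 0.662, 47.2 and 2.18 FPKM in that order, a 10.7-fold higher share with PHA in DMSO and a 21.7-fold lower one with JQ1 in the presence of PHA. CD83 had 11.2, 5.01, 13.3 and 4.93 FPKM. The death receptor FAS had 2.28, 1.07, 2.53 and 1.53 FPKM, and CFLAR, the gene of the caspase-8 regulator c-FLIP, had 1.78, 0.565, 0.883 and 1.17 FPKM. CFLAR passed the filter narrowly, with a mean of 1.1 FPKM and its highest level in DMSO. Its call as lower with JQ1 without PHA thus follows in part from the filter. IER3, an early response gene, was the target on the higher side, with 1.0, 3.04, 5.07 and 6.67 FPKM.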

How the data were processed

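RNA-seq of 4 libraries, 1 per condition, was used as deposited. Per the labels and the study's methods, the authors sequenced Jurkat mRNA and aligned reads to GRCh38 with Hisat2 (2.0.4), while the submitters' processing notes also list TopHat2 (2.0.9) and Cufflinks (2.1.1). The library kit is named differently in the labels and the methods, so strandedness is uncertain. The counting program, annotation release and use of strand are not given in the sources used here. The deposited counts are whole reads per gene without normalization. The deposited FPKM are, by the authors' computation, those counts divided by a length per gene and the library's total count, as checked on the values.

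Log2 ratios of FPKM were taken after adding 0.1, for the 11503 genes with a mean of at least 1 FPKM, and called past 2-fold. For single genes the ratio of shares of counts was given with a 95% exact (Clopper-Pearson) interval, and the difference of ratios with a Wald interval, for genes with a mean count of at least 10. These cover counting error only. Replicate labels pair nothing, since each condition is 1 library, and no p-value was computed.

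The 10 genes and the lists were chosen with earlier results of these data known. Named by rule were the 10 genes, pathway genes past the filter and past 2-fold in at least 1 comparison, the 3 genes most similar to each of the 3 widest-ranging members, and HEXIM1 and EGR1. CD79A, IKBKB and CYLD were named after their values were seen.

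Alternatives were pseudocounts of 1 and 0.01, filters at 0.1 and 5 FPKM or none, a 1.5-fold threshold, centring on the median gene, and scaling by edgeR (4.0.16) TMM or DESeq2 (1.42.0) size factors, which were used for scaling only. Those using annotated exon or canonical transcript lengths (GENCODE 44) or a mean count of 10 were chosen after seeing the data. Python 3.11.15, scipy 1.17.1 and R 4.3.3 were used, and the steps were tested on simulated data.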

Additional observations from a re-analysis of the deposited data

Results flagged for a closer look

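For 4 of the other pathway genes the JQ1 ratio had opposite signs without and with PHA, each with a counting interval that excluded 0. For CFLAR the log2 ratio of JQ1 to DMSO was −1.66 without PHA and 0.41 with PHA, a difference of 2.07 (1.82 to 2.31). For TRAF3 it was −0.50 without PHA and 0.36 with PHA, a difference of 0.86 (0.64 to 1.09). CYLD, a deubiquitinase, had 0.40 without PHA and −0.30 with PHA, a difference of −0.70 (−0.91 to −0.49), and IKBKB, the gene of IKK beta, had 0.22 and −0.26, a difference of −0.49 (−0.64 to −0.34). With 1 library per condition none of these differences was tested, and the intervals cover counting error only. None of the 10 genes met this condition, and no condition had enough libraries to look for one that stood apart.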

How the results depend on the processing

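With 1 library per condition, no replicate could be left out. No paired analysis was possible because each condition is 1 library and no test was made. Of 240 log2 ratios of single genes under an alternative, all on the log2(FPKM + 0.1) scale rather than that of shares, 235 moved by no more than the gene's counting interval allows, 5 moved further (all with a pseudocount of 1) and 0 past 2-fold reversed, while 2 with a size of at most 0.04 changed sign. That interval is wide for RELB, whose ratio for JQ1 with PHA went from −1.46 to −0.34 and −2.30 with pseudocounts of 1 and 0.01 and to −1.88 with exon length, and without PHA from −0.53 to −0.12 with a pseudocount of 1. Counts under TMM, DESeq2 size factors and median centring stayed within 1.5 times.

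Of the 10 genes, 0 was past 2-fold as reported. For JQ1 without PHA it was 1 (NFKBIE) with a filter at 0.1 FPKM, no filter, a mean count of 10, or annotated exon length for the filter or the level, and 3 at 1.5-fold. With PHA it was 1 with the filter at 0.1, none, a mean count of 10 (each RELB), or at 1.5-fold, and for PHA in DMSO 1 with a pseudocount of 0.01 or at 1.5-fold.

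Of the other pathway genes, 10 differed for JQ1 without PHA, and 6 with a pseudocount of 1 (3 higher, 3 lower) and 4 with a filter at 5 FPKM. With PHA the 5 became 10 (filter 0.1), 3 (filter 5), 12 (no filter), 10 (1.5-fold) and 9 (mean count of 10). For PHA in DMSO the 4 became 7 (0.1), 2 (5), 9 (none) and 7 (1.5-fold), and in JQ1 the 4 became 1 (lower, pseudocount of 1) and 2 (filter 5).

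Over all genes, in the order pseudocount of 1, filter 0.1, filter 5, no filter, 1.5-fold and mean count of 10, the 1595 for JQ1 without PHA became 881, 3739, 570, 4742, 3924 and 2562. With PHA the 1344 became 754, 3416, 467, 4500, 3388 and 2282. For PHA in DMSO the 378 became 189, 1617, 104, 2588, 1083 and 659, and in JQ1 the 238 became 114, 1241, 68, 2058, 648 and 386. Filters and thresholds change how many genes can be called.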
